A study of Mus musculus with 20 samples.

Results

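The genes described here are named for proteins of the cytosolic ribosome and were measured in mouse bladder and bladder cancer tissue on whole-transcript microarrays. They were chosen by name: every row of the deposited table with 1 platform symbol of the form Rpl or Rps plus a number, with an optional a, l, x or y, together with Rplp0, Rplp1, Rplp2 and Rpsa. Symbols that mark a pseudogene with -ps and the Rps6k kinases were left out. This found 38 genes among 30142 in all, from 44 rows, and the row with the highest mean was kept where a gene had several. Of the 38, 23 carry names of the large subunit and 15 of the small subunit. Rpl6l, which RefSeq annotates as a pseudogene, fits the rule by its name and is among them. Many ribosomal protein genes have processed copies across the genome, and 53 further rows list a ribosomal protein symbol together with others, between 2 and 12 symbols to a row. Those rows hold 38 symbols that are not among the 38 genes, such as Rpl3, Rpl5, Rpl10, Rplp1, Rplp2, Rps6, Rps27 and Rps27a, so these were not described gene by gene.

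The samples were treated metastasis (n = 1), metastasis (n = 4), treated bladder (n = 3), bladder tumor (n = 7) and control bladder (n = 5). All mice were FVB/N with a genotype that includes floxed Rb and p107-/-, in the controls too. Tumors were started by an adenovirus carrying Cre recombinase, put into the bladder, so any cell the virus reached could lose its floxed alleles; the labels do not say that the controls received a virus. Treated mice were given CM272, which inhibits DNA methyltransferases and the histone methyltransferase G9a, at 5 mg/kg daily over 30 days, and weekly cisplatin, a DNA-crosslinking drug, at 6 mg/kg. The labels call the treated tissue bladder, not tumor, and give no site for the metastases. RNA came from formalin-fixed, paraffin-embedded tissue, and the values are log2 RMA values as deposited, in which a difference of 1 is 2-fold. Values over 16, the log2 limit of a 16-bit scan, occur in 284 rows, none of them kept for a member, so a step beyond RMA of such scans may lie behind the table, and the scale is taken as log2 on the submitters' word. The labels do not state that samples of a group came from separate animals, and the spread that the p-values rest on may be technical.

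Each ribosomal subunit is built from ribosomal RNA and a set of proteins, mostly present once per ribosome, and cells make these proteins in matched amounts. The mRNAs of ribosomal proteins and of several translation factors begin with a run of pyrimidines, the 5′ terminal oligopyrimidine or TOP motif, through which mTOR signalling controls how well they are translated. Ribosomal protein mRNAs are among the most abundant of growing cells, and their supply is tied to cell growth. A few members are paralogs with narrower expression: Rpl3l in heart and skeletal muscle, and Rpl10l and Rpl39l in testis.

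RefSeq promoter sequences (GRCm38.p6) were at hand for 32 of the 38 genes. The letters around the annotated start were searched for a TOP-like tract. This is here a C followed by at least 6 more C or T on the transcript's strand, beginning within 10 bases of the start. A run that began farther upstream, as in Rpl7a, was counted from its first C within those 10 bases. Of the 32 genes, 16 (50%) had such a tract at 1 or more annotated starts, against 14.1% of 27025 genes with a promoter. The windows below run from 15 bases before the start to the 15 bases from it, with the counted letters of the tract in capitals. Rpl35, Rps10, Rpl7a and Rps18 are shown as members with long tracts, Rps9 as a member with a tract whose values hardly varied, and Rps4x, Rpl10l and Rpl3l as members with none. A match is a description of these letters only, and annotated starts can differ from those used in bladder.
Rpl35, chr2:39005117-39005146, minus strand: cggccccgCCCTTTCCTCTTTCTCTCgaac
Rpl7a, chr2:26910792-26910821, plus strand: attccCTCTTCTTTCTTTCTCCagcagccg
Rps10, chr17:27635230-27635259, minus strand: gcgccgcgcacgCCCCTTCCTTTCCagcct
Rps18, chr17:33955651-33955680, minus strand: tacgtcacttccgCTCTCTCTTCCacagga
Rps9, chr7:3704026-3704055, plus strand: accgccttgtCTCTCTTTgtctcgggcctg
Rps4x, chrX:102189377-102189406, minus strand: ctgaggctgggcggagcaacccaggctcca
Rpl10l, chr12:66284387-66284416, minus strand: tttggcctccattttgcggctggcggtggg
Rpl3l, chr17:24727811-24727840, plus strand: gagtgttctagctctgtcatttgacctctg

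Before the results, 2 properties of the data have to be stated. First, 8 arrays stood apart: in control bladder 4, 5 and 6, bladder tumor 3, 4 and 5, and metastasis 3 and 4, the deviations of genes from their means over 20 arrays had a correlation of at most 0.14, across genes, with those of any other array. For each of the other 12 arrays, the best partner reached 0.33 to 0.61. Whether their deposited values had been altered by a step that the other arrays did not go through could not be settled, and they enter the means, SDs and p-values of metastases, bladder tumors and control bladders. They are called stand-alone arrays here, and the comparisons are given with and without them. Second, a row's identifier names a chromosome, and it is the gene's own for 33 of the 38 members, against 98.8% of 22818 rows checked. The kept rows of Rpl12, Rpl27, Rpl31, Rpl35 and Rpl41 lie on another chromosome than the gene, so they may read copies. As a check of the tissue labels, the mean of 17 urothelial genes was 6.55 to 7.60 in treated bladders, 5.43 to 8.97 in bladder tumors and 6.53 to 7.73 in control bladders. It was 5.26 in the treated metastasis and 5.25 to 6.50 in metastases. In the 8 stand-alone arrays the median deviation of these genes ran only from -0.21 to 0.07, beside -1.29 to 1.69 in the other 12. For 16 smooth muscle genes it ran from -0.15 to 0.03, beside -1.14 to 2.25. The check therefore says little about the labels of the stand-alone arrays.

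No ribosomal protein gene was called as different between groups, and neither was any other gene. The absence of calls therefore does not show that the members were unchanged. limma, fitted over all genes on 19 arrays with Benjamini-Hochberg adjustment, called 0 of the 38 members at adjusted p under 0.05 in bladder tumor against control bladder, where percent called over all genes was 0. It called 0 members in treated bladder against bladder tumor (0% of all genes), in treated bladder against control bladder (0%), in metastasis against bladder tumor (0%) and in metastasis against control bladder (0%). The median difference of the members was -0.07 in bladder tumor minus control bladder, beside 0.01 over all genes. It was 0.01 in treated bladder minus bladder tumor, beside -0.00 over all genes, and -0.09 in treated bladder minus control bladder, beside 0.01. For metastasis it was 0.05 against bladder tumor, beside -0.03 over all genes, and -0.06 against control bladder, beside -0.01. The 95% interval of the difference lay within a 2-fold change either way for 28 to 32 of the 38 members in each of the 5 comparisons, and for the remaining ones these arrays could not bound the change so far. In bulk tissue, fewer cells of a type and less RNA per cell cannot be told apart.

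What the members did show was a shift in common from array to array. For each array the members' deviations from their own means were summarised by their median. That median was 0.22 in the treated metastasis and 0.16, 0.29, -0.06 and -0.16 in metastasis 1 to 4. It was -0.20, 0.23 and -0.14 in treated bladder 1 to 3, and -0.67, -0.21, -0.07, -0.16, -0.13, 0.34 and 0.51 in bladder tumor 1 to 7. In control bladder 1, 2, 4, 5 and 6 it was 0.22, 0.25, -0.08, -0.04 and -0.06. The bladder tumors therefore held both the lowest and the highest array, and every other group lay inside their range. In bladder tumor 1, 32 of the 38 members were below their own mean, and 21 had their lowest value of all 20 arrays there, against 12.9% of all genes. In bladder tumor 7, 32 members were above their mean and 12 had their highest value there, against 6.19% of all genes. The median over all genes stayed between -0.09 and 0.10 in every array. All 8 stand-alone arrays lay between -0.16 and -0.04.

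**Figure D1:**
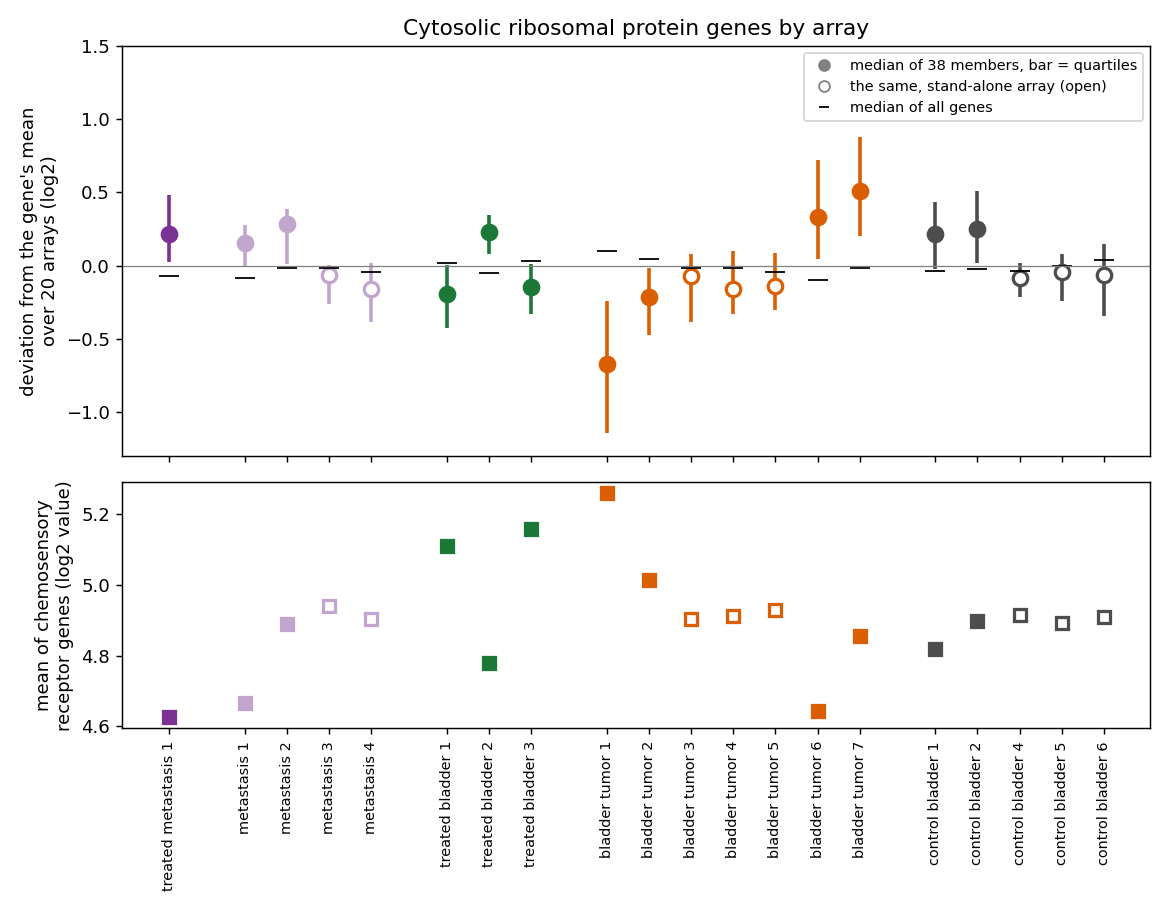
Upper panel: for each of 20 arrays, the median (point) and quartiles (bar) over 38 ribosomal protein genes of the deviation from each gene's mean, in log2 units, with the median of all genes as a dash; open symbols are stand-alone arrays. Bladder tumor 1 is lowest at -0.67 and bladder tumor 7 highest at 0.51. Lower panel: the mean log2 value of 1755 chemosensory receptor genes in the same arrays, from 4.63 to 5.26.

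The level of genes with no known use in bladder moved the other way in several of these arrays. The mean log2 value of 1755 olfactory, vomeronasal and taste receptor genes, taken as a measure of background, was highest in bladder tumor 1 (5.26), treated bladder 3 (5.16), treated bladder 1 (5.11) and bladder tumor 2 (5.01), which were the 4 lowest of the 12 other arrays for the ribosomal proteins. It was 4.63 in the treated metastasis, 4.64 in bladder tumor 6, 4.67 in metastasis 1 and 4.78 in treated bladder 2, all of them arrays with a positive ribosomal median. Bladder tumor 7, the highest for the ribosomal proteins, read 4.86. Its part in the common shift was not tested. Bladder tumor 7 was also high for other tissue genes, with the highest array means of 17 urothelial (8.97) and 16 smooth muscle genes (8.89). Bladder tumor 6 had a ribosomal median of 0.34 with low urothelial and smooth muscle genes, whose median deviations were -0.79 and -0.94.

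The member that followed this shift most closely was of the small subunit, but the next ones were of the large subunit. Over the 12 other arrays the Pearson correlation of a member with the median of the remaining members was 0.98 for Rps4x, an X-linked gene of the small subunit, and 0.95 for Rpl4, a core protein of the large subunit. Over the same arrays it was 0.96 for Rpl35 and 0.96 for Rpl27, both from rows on another chromosome than the gene. For Rps26, the next small-subunit member, it was 0.90. Across the 38 members its median was 0.79 and 26 exceeded 0.7, whereas over all genes the median was -0.26 and 8.04% exceeded 0.7. Spearman's rho gave a median of 0.69 over the members. These are descriptions over 12 arrays that share their normalization, and the members themselves make up the median. Without bladder tumor 1 and 2, the 2 arrays farthest from the middle of that median, the members' median correlation was 0.67 and 18 of 38 exceeded 0.7, against -0.15 and 4.01% for all genes. In the 8 stand-alone arrays the median correlation of the members was -0.09 and 0 of 38 exceeded 0.7, against 0.10 and 4.44% for all genes. The members' median deviation spanned only 0.12 in these arrays, beside 1.18 in the other 12, so correlations with it say little there. Single members still varied in the 8, with a median SD of 0.27 beside 0.42 in the other 12. Over all genes the median SD was 0.25 in the 8 arrays and 0.26 in the 12.

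The heat map of the members by array shows the same pattern row by row, with values for a few members as follows. Rps4x read 8.41 in the treated metastasis and 8.15, 8.35, 7.39 and 7.91 in metastasis 1 to 4. It read 7.52, 8.47 and 7.66 in treated bladder 1 to 3, had its lowest, median and highest values at 6.74, 7.87 and 8.91 in bladder tumors, and ran from 7.65 to 8.69 in control bladders. The groups overlapped throughout, with bladder tumor 1 lowest and bladder tumor 7 highest. Rpl4 spanned 8.57 to 11.4 in bladder tumors, with a median of 9.81, and 9.52 to 10.7 in control bladders. Its lowest and highest values were again in bladder tumor 1 and bladder tumor 7.

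**Figure D2:**
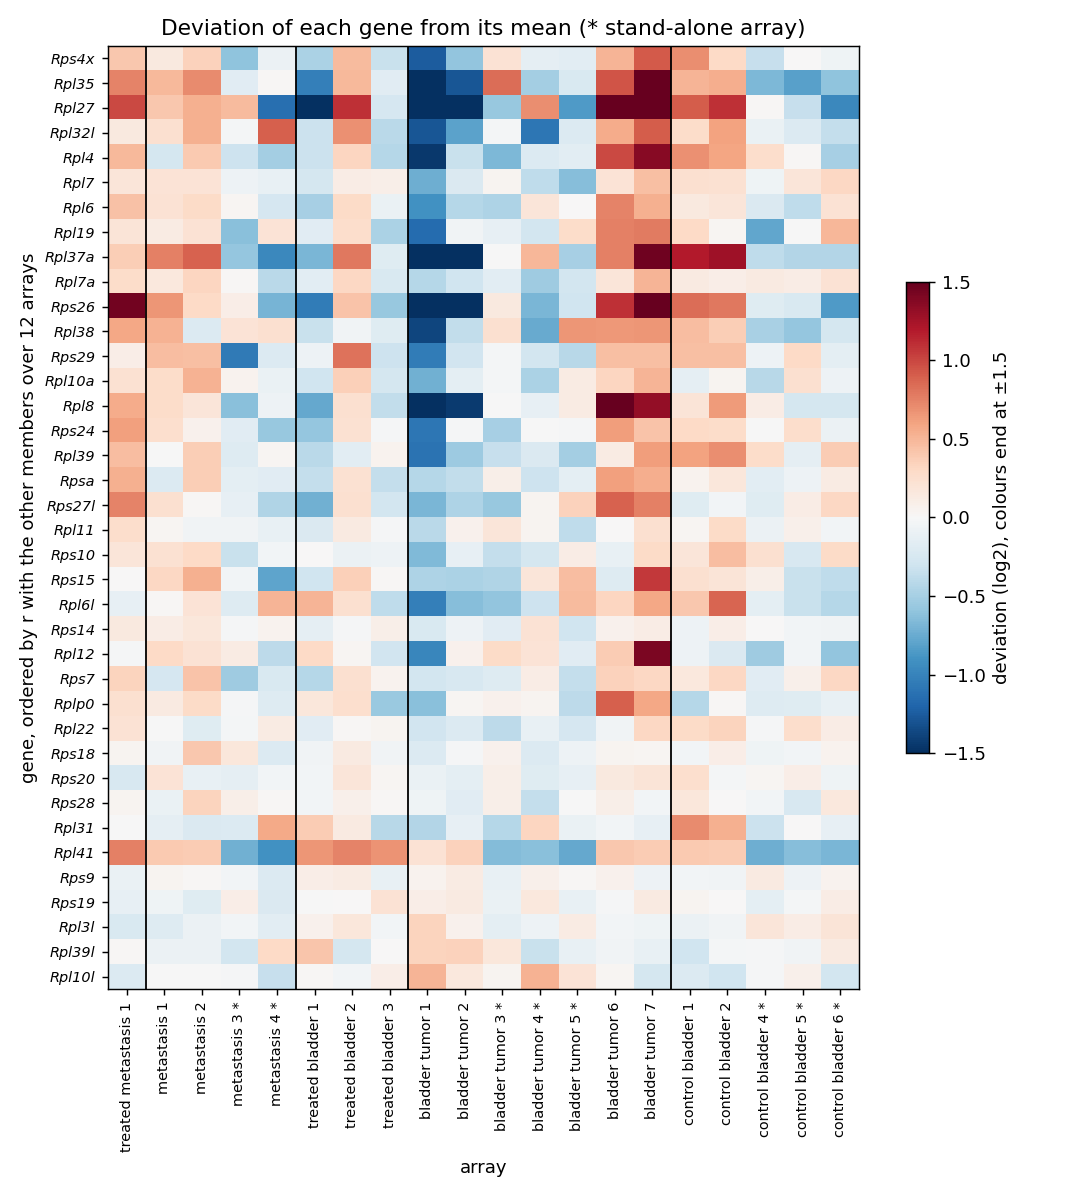
Deviation of each of 38 ribosomal protein genes (rows, ordered by their correlation with the other members over 12 arrays) from its own mean, in log2 units, for 20 arrays (columns, asterisk for stand-alone arrays). Bladder tumor 1 is low and bladder tumor 6 and 7 are high across the upper rows, while Rpl3l, Rpl39l, Rpl10l, Rps9 and Rps19 at the bottom do not follow. Rpl41 splits the arrays into the 8 stand-alone ones and the rest.

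The spread among bladder tumors was the widest of the groups for the ribosomal proteins. The median SD of a member was 0.30 in metastases, 0.34 in treated bladders, 0.52 in bladder tumors and 0.25 in control bladders, beside 0.23, 0.23, 0.27 and 0.21 over all genes in the same groups. For 34 of 38 members the SD was larger in bladder tumors than in control bladders, against 69.9% of all genes. Without the stand-alone arrays the median SD of a member was 0.11 in 2 metastases, 0.34 in 3 treated bladders, 0.62 in 4 bladder tumors and 0.09 in 2 control bladders, beside 0.16, 0.23, 0.28 and 0.10 over all genes. The 3 members with the largest SD over 20 arrays were Rpl27, a large-subunit protein, at 1.36, Rps26, which sits near the mRNA exit of the small subunit, at 1.03, and Rpl37a at 0.97. Rps26 read 9.52, 9.34, 11.4, 10.5, 10.9, 12.3 and 13.5 in bladder tumor 1 to 7, so that the highest tumor stood 4.16 above the lowest on the log2 scale. The kept row of Rpl27 spanned 7.54 to 13.4 in bladder tumors, while a second row on the gene's own chromosome spanned 6.45 to 7.63 with the same 2 arrays at its ends and a correlation of 0.92 with the first over 20 arrays. The 3 with the smallest SD were Rps9 at 0.09, Rps19, a gene of Diamond-Blackfan anemia in humans, at 0.12 and Rps14 at 0.14.

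Some members stayed flat or ran against the rest. Over the 12 other arrays the correlation with the remaining members was -0.86 for Rpl10l, -0.75 for Rpl39l, -0.67 for Rpl3l, -0.39 for Rps19 and -0.31 for Rps9. Rpl10l, Rpl39l and Rpl3l are the paralogs of narrow expression, and over all 20 arrays Rpl10l read 4.12 to 4.99, Rpl39l 4.68 to 5.43 and Rpl3l 4.21 to 4.77. Rpl10l was highest in bladder tumor 4 and bladder tumor 1. Rps9 read 5.71 to 6.05 and Rps19 6.13 to 6.56 in the same arrays, so these rows carried little of the variation seen in the other members. The values of Rpl10l, Rpl39l and Rpl3l lie near the chemosensory mean taken above as background, 4.63 to 5.26 over the 20 arrays. The chemosensory genes themselves had a median correlation of -0.53 with the ribosomal median over the 12 other arrays. Whether the rows of these paralogs read more than background was not tested. Among the 16 genes with a tract the median correlation was 0.86, with Rpl39l lowest at -0.75, and among the 16 without it was 0.74, with Rpl10l lowest at -0.86 and Rps4x highest at 0.98. Both sets thus spanned nearly the whole range.

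Translation factor genes had correlations with the ribosomal median like those of the members in the 12 other arrays, with lower ones for ribosome biogenesis genes. Of 24 listed translation factors and other TOP mRNA genes, 20 were measured, and their median correlation with the ribosomal median was 0.80, with 16 above 0.7. For 14 other initiation factors it was 0.68, for 75 mitochondrial ribosomal protein genes, which build a separate ribosome, 0.45, and for 43 ribosome biogenesis genes, which act in the nucleolus, 0.32. In the 8 stand-alone arrays the values were 0.06 for the TOP mRNA genes, 0.26 for the other initiation factors, 0.21 for the mitochondrial proteins and 0.27 for ribosome biogenesis. Over all genes the median was 0.10 there. Some genes outside these lists, picked here for that, had values as high. By correlation over 20 arrays, and leaving out ribosomal protein names, predicted genes and small RNAs, the 3 most alike were Paip2, which binds the poly(A)-binding protein, at 0.93, Bmpr2, a BMP receptor, at 0.92, and Serinc1 at 0.92. Actb, cytoplasmic actin, reached 0.90. Of the listed TOP mRNA genes, Pabpc1, the poly(A)-binding protein itself, reached 0.91 and Eef2, the translocation factor of elongation, 0.90. The rows that list several symbols followed too, with a median correlation of 0.69 over 53 rows.

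**Figure D3:**
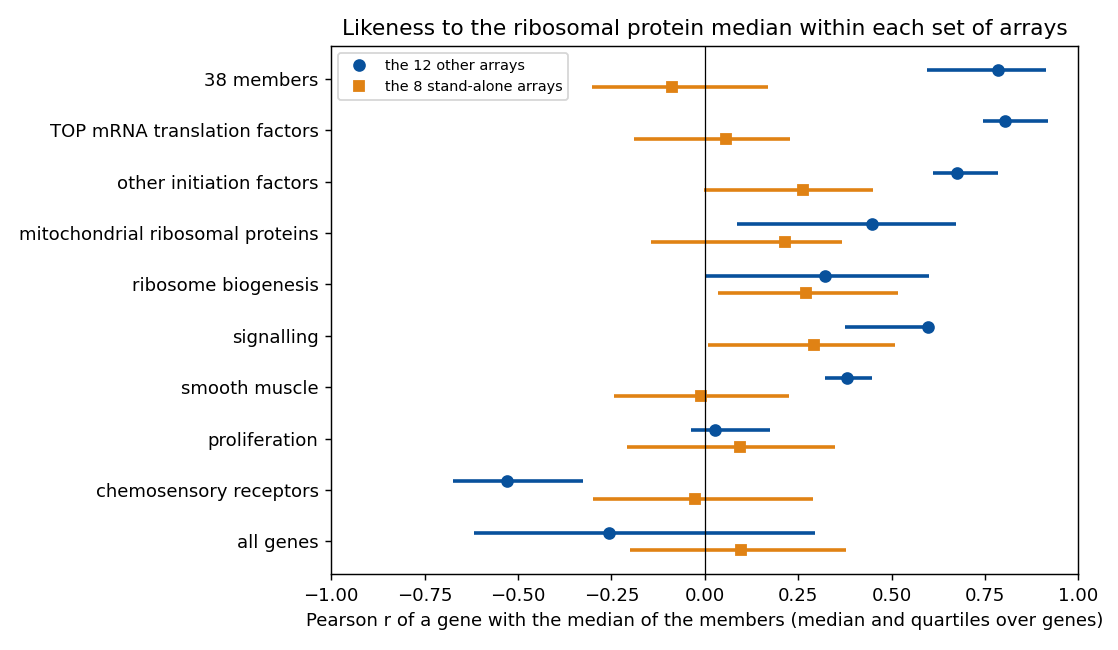
Pearson correlation of genes with the median of the 38 ribosomal protein genes (each member against the others), shown as median and quartiles over the genes of each set, for the 12 other arrays (blue circles) and the 8 stand-alone arrays (orange squares). In the 12 arrays the members (0.79) and the TOP mRNA genes (0.80) lie far to the right of all genes (-0.26). In the 8 arrays the medians are -0.09 for the members, 0.06 for the TOP mRNA genes and 0.10 for all genes.

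Bladder tumor against control bladder asked what tumor formation does to these genes. The 3 largest negative differences were those of Rpl39 (-0.64), Rpl37a (-0.46) and Rps29 (-0.36), and the 3 largest positive ones those of Rpl12 (0.46), Rpl10l (0.32) and Rplp0 (0.26). Of 38 members 25 had lower means in bladder tumor, against 47.0% of all genes, and 4 had an unadjusted p under 0.05, where 4.28% of all genes did. Lower in bladder tumor were Rpl39, Rpl22 and Rps10, where 1.96% of all genes were, and higher was Rpl10l, where 2.32% were, each with a limma adjusted p of 0.999. The groups overlapped for all 38 members, while 0.106% of all genes lay higher and 0.073% lower without overlap. Rpl39, a small protein of the peptide exit tunnel, read 5.93, 6.49, 6.69, 6.82, 6.53, 7.16 and 7.66 in bladder tumor 1 to 7, against 7.63, 7.73, 7.31, 6.91 and 7.41 in control bladder 1, 2, 4, 5 and 6. Most tumors lay below most controls, but bladder tumor 6 and 7 overlapped them. Rpl22, a large-subunit protein that is deleted or mutated in several human cancers, averaged 6.90 ± 0.23 in bladder tumor and 7.24 ± 0.15 in control bladder (SD, n = 7 and 5), a difference of -0.34 with a limma p of 0.00614 before adjustment. Bladder tumor 7, at 7.35, was inside the control range of 7.03 to 7.38. Rps10 averaged 7.50 ± 0.31 in bladder tumor and 7.85 ± 0.26 in control bladder.

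Leaving out the 8 stand-alone arrays leaves 4 bladder tumors and 2 control bladders, and the median difference of the members was then -0.19 with 29 of 38 lower in tumor, beside 0.06 over all genes. No member was called, the lowest adjusted p being 0.987, and 1 of all genes was. Both remaining controls had a positive ribosomal median, as stated above. The difference of Rpl39 was -0.87 in these arrays and -0.53 within the stand-alone arrays alone. That of Rpl37a was -0.46 over all arrays, -1.62 in these and 0.42 in the stand-alone arrays alone. Rplp0, the stalk protein of the large subunit, read 8.43 to 9.96 in bladder tumors and 8.63 to 9.08 in control bladders, and Rpsa, the laminin receptor precursor that is part of the small subunit, read 6.87 to 7.92 in bladder tumors and 7.14 to 7.48 in control bladders. The groups overlapped for both. Rpl11, a large-subunit protein, read 5.90 to 6.54 in bladder tumors and 6.22 to 6.60 in control bladders.

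**Figure D4:**
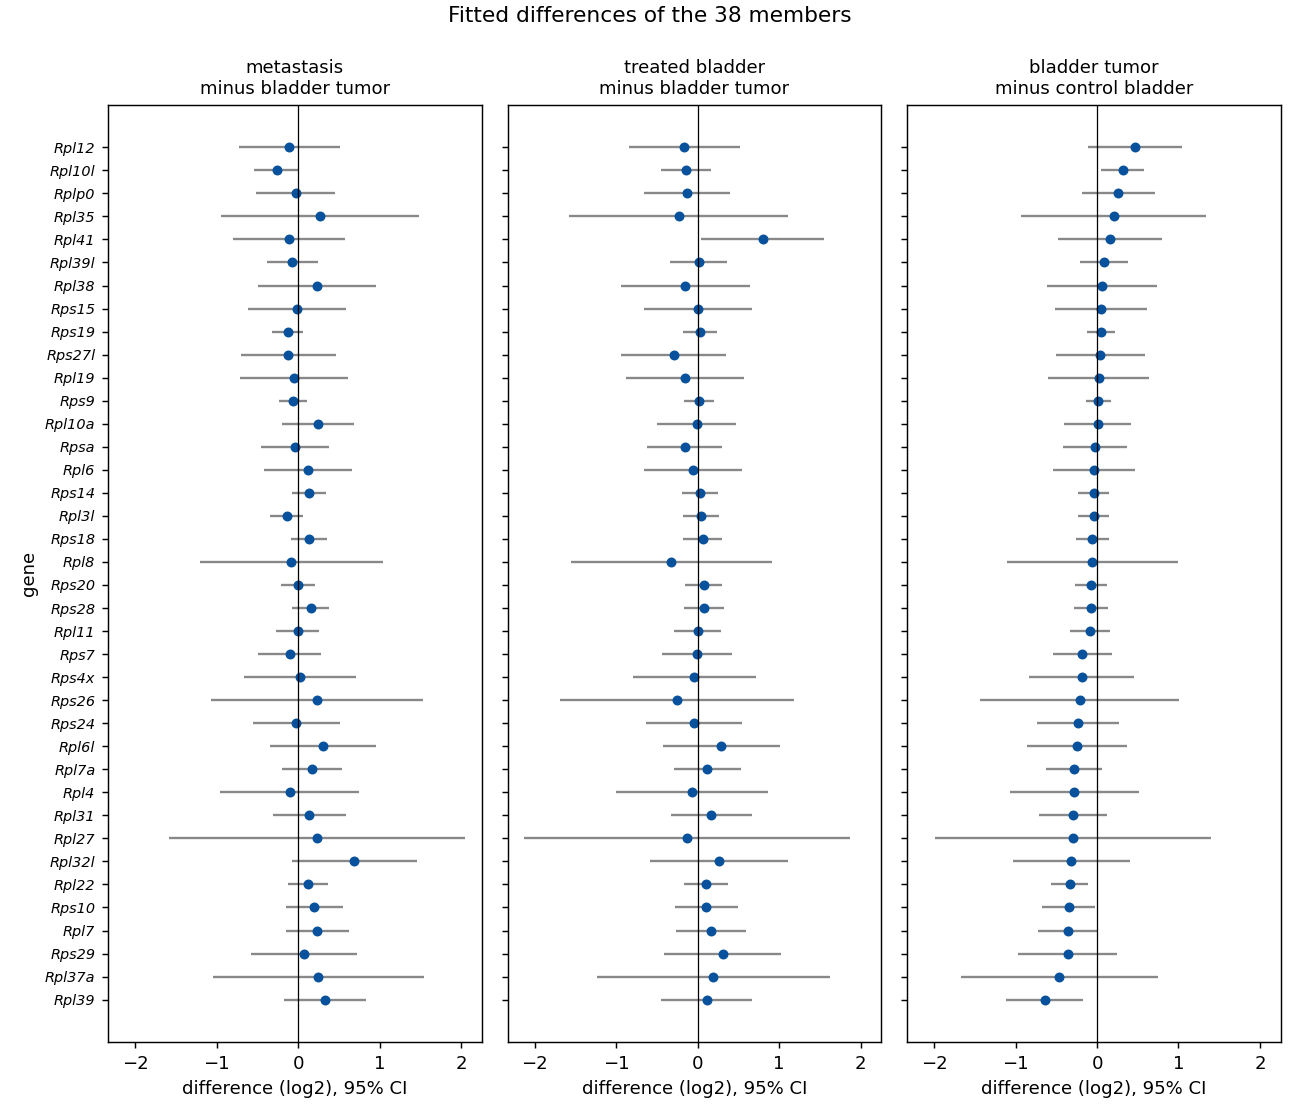
Fitted log2 differences (points) with 95% confidence intervals (bars) for the 38 members in metastasis minus bladder tumor, treated bladder minus bladder tumor and bladder tumor minus control bladder, in the order of the last. Points run from -0.64 to 0.80. The widest intervals are those of Rpl27, from -1.59 to 2.04, from -2.12 to 1.87 and from -1.99 to 1.40 in the same order.

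Treated bladder against bladder tumor asked what CM272 plus cisplatin does. Of 38 members 17 had lower means in treated bladder, against 50.6% of all genes, and the median difference was 0.01. Without the stand-alone arrays, none of which is a treated one, 23 of 38 were lower with a median of -0.01, beside -0.01 over all genes, and with the stand-alone set as a covariate 21 were lower with a median of -0.06. No gene was called in either fit. The largest differences were those of Rpl41 (0.80), Rps29 (0.31) and Rpl6l (0.29), the last annotated as a pseudogene by RefSeq, and those of Rpl8 (-0.32), Rps27l (-0.29) and Rps26 (-0.26). Several of these signs did not hold: without bladder tumor 6 Rpl8 was at 0.02, without bladder tumor 7 Rps26 was at 0.15, without treated bladder 2 Rps29 was at -0.03, and the replicate block gave 0.22 for Rpl8, 0.08 for Rps27l and 0.11 for Rps26. Rpl41 was the 1 member with an unadjusted p under 0.05 (0.0385, adjusted p of 1), where 0.488% of all genes had one. It was also the 1 member whose groups did not overlap, with the treated bladders higher, as for 0.133% of all genes (0.0332% were lower). Rps27l, a paralog of Rps27, read 5.92, 6.88 and 6.37 in treated bladder 1 to 3, against 5.95 to 7.52 in bladder tumors, whose median was 6.68. All treated values but the lowest lay inside the tumor range. The difference of Rps27l had a 95% interval of -0.94 to 0.35, so these arrays could not tell a fall within that range from no change.

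Rpl41, which codes for the smallest ribosomal protein, separated the stand-alone arrays from the rest. Its kept row, which lies on another chromosome than the gene, was at 15.4 in the treated metastasis, at 15.3, 15.4 and 15.4 in treated bladder 1 to 3, at 14.9 to 15.1 in bladder tumor 1, 2, 6 and 7, at 15.1 in metastasis 1 and 2, and at 15.1 in control bladder 1 and 2. In the 8 stand-alone arrays it read 13.8 to 14.0. Only 6 of 30142 genes (0.0199%) were lower in all 8 than in all 12, and none was higher. The 4 treated arrays were thus the highest of the 12. Without the stand-alone arrays the difference of treated bladder minus bladder tumor was 0.36, and with the stand-alone set as a covariate 0.33, with an adjusted p of 1 in both. Quantile normalization once more gave 0.12. The row of Rpl41 on the gene's own chromosome read 7.72 to 7.86 in treated bladders and 7.41 to 8.13 in bladder tumors, a difference of -0.05.

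**Figure D5:**
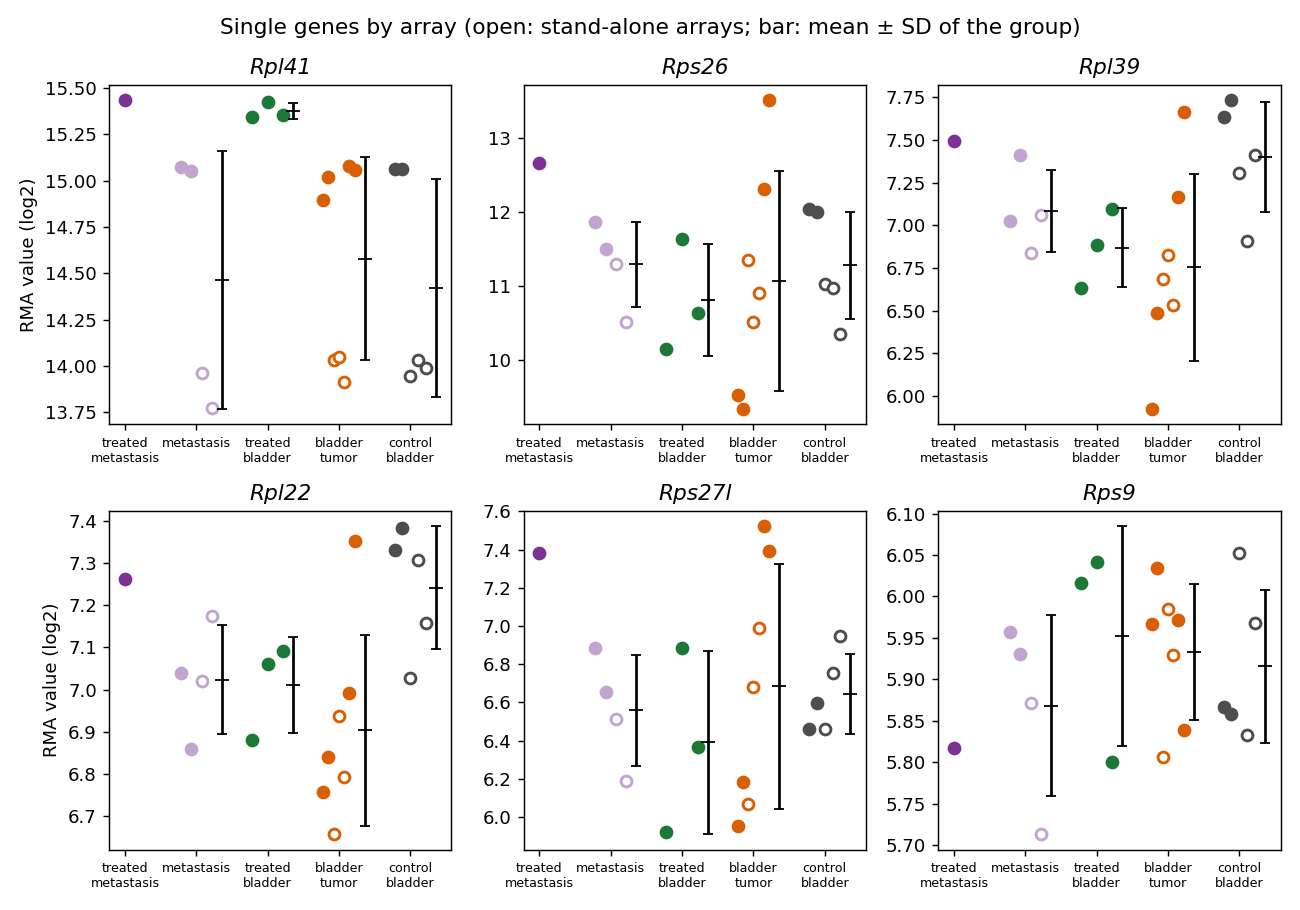
Log2 RMA values of 6 members by group, each point 1 array (open for stand-alone arrays), with mean ± SD beside groups of 3 or more. Rpl41 lies at 13.8 to 14.0 in the stand-alone arrays and at 14.9 to 15.4 in the others; Rps26 spans 9.34 to 13.5 in bladder tumors; Rps9 stays between 5.71 and 6.05 in all arrays.

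Treated bladder against control bladder shares its controls with the tumor comparison and its treated arrays with the previous one. Of 38 members 27 had lower means in treated bladder, against 47.2% of all genes. The largest differences were those of Rpl39 (-0.53), Rps26 (-0.47), Rpl27 (-0.43), Rpl41 (0.96), Rpl12 (0.30) and Rpl10l (0.17). With the chemosensory mean as a covariate Rps26 was at 0.17 and Rpl27 at 0.48, and without treated bladder 1 Rpl27 was at 0.28. Rpl41 alone had an unadjusted p under 0.05 (0.0211, adjusted p of 1), where 0.763% of all genes had one. Its treated values lay above all controls, as for 0.717% of all genes (0.478% lay below them), and its difference was 0.31 without the stand-alone arrays. The median difference of the members was -0.27 in that case, beside 0.04 over all genes, with 30 of 38 lower. That case left 3 treated bladders and 2 control bladders, and both controls had a positive ribosomal median (0.22 and 0.25). There 0 members and 1 of all genes were called.

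Metastasis against bladder tumor asked how spread tumors differ from primary ones. The largest differences were those of Rpl32l (0.69), a copy of Rpl32 annotated as protein-coding by RefSeq, Rpl39 (0.33), Rpl6l (0.31), Rpl10l (-0.27), Rpl3l (-0.14) and Rps19 (-0.13). Rpl32l read 8.37, 8.66, 8.10 and 9.03 in metastasis 1 to 4, against 6.85 to 9.04 in bladder tumors with a median of 7.92, so the groups overlapped, and its adjusted p was 0.836. No member had an unadjusted p under 0.05, where 6% of all genes had one, and the groups overlapped for all 38 members (0.156% of all genes lay higher and 0.358% lower without overlap). Without the stand-alone arrays 29 of 38 members were higher in metastasis, with a median difference of 0.17 beside -0.07 over all genes. There 0 members and 4 of all genes were called. Only 2 metastases were left, and bladder tumor 1 and 2 were then 2 of the 4 tumors. As for markers of other cell types, the array means of 16 smooth muscle genes ran from 5.43 to 6.50 in metastases, with a median of 6.00, and from 5.45 to 8.89 in bladder tumors, with a median of 6.42. Those of 8 hepatocyte genes ran from 5.31 to 7.49 in metastases, with a median of 5.69, and from 4.76 to 5.54 in bladder tumors, with a median of 5.32. Those of 11 macrophage genes ran from 6.34 to 8.37 in metastases, with a median of 6.93, and from 5.74 to 7.05 in bladder tumors, with a median of 6.45. All 11 macrophage genes had higher means in metastasis, with a median difference of 0.73. Metastasis 1 and 2 carried this difference. The median deviation of the macrophage genes was highest of all arrays in metastasis 1 and 0.69 in metastasis 2. It was -0.16 and -0.14 in metastasis 3 and 4, which are stand-alone arrays. For the hepatocyte genes it was -0.42, 1.51, -0.14 and -0.02 in metastasis 1 to 4, so metastasis 2 alone was high. The ranges overlapped for each of these lists, and their part in the ribosomal values was not tested.

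Metastasis against control bladder gave Rpl35 (0.47), Rpl32l (0.37), Rpl12 (0.35), Rpl4 (-0.39), Rpl39 (-0.32) and Rps29 (-0.29) as the largest differences. The kept row of Rpl35 lies on another chromosome than the gene. The row of Rpl35 on the gene's own chromosome read 7.99 to 8.71 in metastases and 8.24 to 8.67 in control bladders. There the difference was 0.0017. The lowest adjusted p among the members was 0.728, and none had an unadjusted p under 0.05, where 7.12% of all genes had one. No member separated the groups, while 0.995% of all genes lay higher and 1.95% lower in metastasis without overlap. The controls are those of the tumor comparison. Rps29 overlapped between groups, at 7.12 to 8.64 in metastases and 8.03 to 8.63 in control bladders. The lowest value was that of metastasis 3, and without it the difference of Rps29 was 0.04. Over all arrays 22 of 38 members had lower means in metastasis, against 52.9% of all genes. Without the stand-alone arrays, only 2 metastases and 2 control bladders were left. There 21 members were lower with a median difference of -0.04, beside -0.02 over all genes, and 0 members and 5 of all genes were called.

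The single treated metastasis allowed no test. It lay above the range of the 4 metastases for 15 of 38 members, against 14.4% of all genes, and below it for 2, Rps20 and Rpl3l, against 19.1%. Quantile normalization once more reduced the 15 to 7. Its median difference from the mean of the metastases was 0.20 for the members and -0.04 for all genes. Rps26 was the 1 member at least 1 higher, where 1.28% of all genes were: it read 12.7 in the treated metastasis, against 11.9, 11.5, 11.3 and 10.5 in metastasis 1 to 4. No member was at least 1 lower, where 0.272% of all genes were. Rps27l read 7.38 in the treated metastasis, against 6.19 to 6.88 in metastases. The treated metastasis also had the lowest chemosensory mean of all arrays, 4.63, against 4.67 to 4.94 in metastases, and the part of this in the ribosomal values was not tested.

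The other genes of the pathway were not called in any comparison either. In treated bladder against bladder tumor all 43 measured ribosome biogenesis genes had lower means, with a median difference of -0.10, where 50.6% of all genes had lower means, but none had an unadjusted p under 0.05. The median deviation of this list was -0.17, -0.15 and 0.03 in the 3 treated bladders, and from -0.21 to 0.32 in bladder tumors, so the groups overlapped. The chemosensory means of treated bladder 1 and 3, 5.11 and 5.16, were above those of all bladder tumors but bladder tumor 1, and their part in these differences was not tested. Other lists shifted too: all 16 proliferation and all 11 macrophage genes had lower means, with a median difference of -0.30 for each list. Higher means were those of 15 of 16 smooth muscle genes (median 0.46) and 15 of 17 urothelial genes (0.44). The part of tissue make-up was not tested. Among the ribosome biogenesis genes the smallest p was that of Mrto4, a ribosome assembly factor. It averaged 5.26 ± 0.13 in treated bladder and 5.50 ± 0.21 in bladder tumor (SD, n = 3 and 7). Bop1, an assembly factor of the large subunit, followed at 5.45 ± 0.11 and 5.71 ± 0.28. Of the 20 TOP mRNA genes, 14 had lower means in treated bladder. Eef1a1, the tRNA-delivering elongation factor, read 12.7 ± 0.07 in treated bladder and 12.2 ± 0.42 in bladder tumor. In bladder tumor against control bladder 30 of 43 ribosome biogenesis genes had higher means, with a median of 0.08, while the ribosomal proteins had a median of -0.07. There Mrto4 averaged 5.50 ± 0.21 in bladder tumor and 5.22 ± 0.09 in control bladder (SD, n = 7 and 5), with a limma adjusted p of 0.999. Of 13 measured signalling genes, among them the growth regulator Myc, 7 had higher means in bladder tumor than in control bladder. In treated bladder 12 of the 13 had lower means than in bladder tumor, beside the same 50.6% of all genes, and none passed the test. Utp4, a factor of small-subunit rRNA processing, had the largest of the named differences in metastasis against control bladder, at 6.95 ± 0.38 in metastasis and 6.34 ± 0.14 in control bladder (SD, n = 4 and 5), with a limma adjusted p of 0.676.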

How the data were processed

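The deposited table holds log2 values. Per the submitters' processing notes, the authors used RMA and Expression Console (Affymetrix), whose versions, like any batch step, are not given here. RMA removes background, equalises the arrays' distributions by quantiles and combines each row's probes. The table holds 65956 rows for 20 arrays, with values of 2.29 to 22.0; array medians ran from 5.07 to 5.42, and 284 rows exceed 16, the log2 limit of a 16-bit scan. The number of arrays limits the precision. Names came from the platform annotation, where 30604 rows with 1 symbol gave 30142 genes after 827 symbols were updated through GRCm38.p6 gene IDs, keeping the row with the highest mean. limma 3.58.1 (R 4.3.3) fitted group means (lmFit, eBayes, no covariates) to the 19 arrays of 4 groups, in 5 comparisons, calling a gene at a Benjamini-Hochberg adjusted p under 0.05. It was also run on simulated data of 30142 genes with independent noise and changes planted in 200 genes at random. Of 2-fold changes it recovered 75% in bladder tumor against control bladder and 76% in treated bladder against bladder tumor. It recovered 66% in treated bladder against control bladder, 81% in metastasis against bladder tumor and 68% in metastasis against control bladder, with 6 to 10 false calls. These rates are for genes picked at random, not for the members. The members' median SD in bladder tumors was 0.52, beside 0.27 over all genes, and their shift in common was not simulated.

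The members and gene lists were chosen with earlier results of these data known. Named are the 3 largest differences each way per comparison, the paralog pairs and a fixed set of members, the 3 highest and 3 lowest SDs, and the 2 smallest p of a list described; the genes most alike and some array values were chosen after being seen. Alternatives tried are listed with their effect at the end. Some further genes are not reported here.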

Additional observations from a re-analysis of the deposited data

Results flagged for a closer look

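Among 24 named members and the median of the 38, 75 sets of values (metastases, bladder tumors and control bladders) were searched for an array far from the others of its group by Dixon's ratio, and 3 were found; chance gives about 1 in 20 sets. All 3 lie among the 4 metastases. Rpl10l read 4.12 in metastasis 4, against 4.45 to 4.47 in the other 3. Rpl27 read 9.33 in metastasis 4, against 10.86 to 10.98 in the other 3. Rpsa read 7.67 in metastasis 2, against 7.10 to 7.16 in the other 3. Metastasis 4 is a stand-alone array, and metastasis 2 is not.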

How the results depend on the processing

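The alternatives were repeated quantile normalization, centred arrays, a filter on dim genes, the mean of all rows of a gene, array weights, a trended robust prior, only the 2 groups compared, the replicate block, the chemosensory mean as a covariate, the stand-alone arrays left out and each array left out in turn. Stand-alone arrays alone or as a covariate, rows on the gene's own chromosome, the members without l-named paralogs, and all settings of the treated metastasis were chosen after seeing the data. In all 163 refits 0 members were called, while over all genes 12 of these refits called 1 to 5 genes, against 0. The members' median difference ranged from -0.19 to -0.00 in bladder tumor minus control bladder, from -0.10 to 0.14 in treated bladder minus bladder tumor, from -0.28 to 0.07 in treated bladder minus control bladder, from -0.11 to 0.21 in metastasis minus bladder tumor and from -0.12 to 0.02 in metastasis minus control bladder. Of the named differences, 11 of 348 turned sign, and 6 of 570 with 1 array left out. The cause was not tested. These counts include values that could not change. Leaving out an array of a group not compared leaves a difference as it was. So do a fit of only the 2 groups compared, the trended robust prior and, for a gene kept, the filter on dim genes. With the replicate block, treated bladder minus bladder tumor became 0.22 for Rpl8, 0.079 for Rps27l and 0.11 for Rps26. Whether the replicate numbers pair the samples could not be settled. Same-numbered arrays had correlated deviations (over 0.1) in 3 of 20 pairs, from -0.51 to 0.44, and 2 of 19 arrays correlated best with their own number. The stand-alone arrays were alike to no other array, so pairs with them could hardly show a link. Without the 8 stand-alone arrays, metastasis minus control bladder became 0.0058 for Rps29 and -0.055 for Rpl32l. With the chemosensory mean as a covariate, treated bladder minus bladder tumor became 0.10 for Rpl8 and 0.16 for Rps26, and treated bladder minus control bladder 0.17 for Rps26 and 0.48 for Rpl27. In rows on the gene's own chromosome Rpl41 was -0.054 in treated bladder minus bladder tumor, and in stand-alone arrays alone Rpl37a was 0.42 in bladder tumor minus control bladder. With 1 array left out, treated bladder minus bladder tumor ranged from -0.62 to 0.017 for Rpl8 (highest without bladder tumor 6), from -0.67 to 0.15 for Rps26 (0.15 without bladder tumor 7 and 0.071 without treated bladder 1) and from -0.028 to 0.53 for Rps29 (lowest without treated bladder 2). In the same way treated bladder minus control bladder ranged from -1.12 to 0.28 for Rpl27 (highest without treated bladder 1), and metastasis minus control bladder from -0.47 to 0.038 for Rps29 (highest without metastasis 3). In the treated metastasis, members at least 1 above the mean of the metastases numbered 3 after centring, 0 with the mean of all rows, 0 after quantile normalization, 0 without metastases 3 and 4, and 1 to 3 with 1 metastasis left out; those above the range numbered 7 after quantile normalization.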
